A study of Mus musculus with 4 samples.

Results

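The genes described here encode the proteins of the cytosolic ribosome in the mouse trigeminal ganglion, where the sensory neurons of the face have their cell bodies among glia. They were chosen by name and level: rows of the deposited expression table named Rpl or Rps with a number or a p-number, with no pseudogene suffix, and averaging 1 TPM or more across the 4 libraries. TPM is a transcript's abundance per unit of its length, and its sum is the same in each library. The rule gave 81 genes of the 56035 rows, or of the 15390 rows that reach the same level, with 33 for the small and 48 for the large subunit. Another 7 rows matched the name but lay below 1 TPM. The choice rested on the mean level, so the levels below are a description. RNA came from male C57BL/6 mice of 8 weeks. The K823R group carried an allele of Trpv1 in which a lysine is replaced by arginine, called transgenic in the genotype label and a knock-in in the protocol. The WT group was made of wild-type littermates. TRPV1 is the heat- and capsaicin-gated cation channel of nociceptors, and the allele is that of the whole animal as far as the labels say. Each group had 2 libraries. The protocol mentions 2 pairs of ganglia without saying how many animals stand behind one library, so the p-values reflect sample-to-sample spread that could be technical.

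A ribosome is built from ribosomal RNA and one copy of most of these proteins, with the acidic stalk proteins as the known exception. The small subunit reads the mRNA and the large subunit joins amino acids and releases the chain through a tunnel. Because the proteins are needed in equal amounts, their genes are known to be transcribed at high rates and to be regulated together. Most of their mRNAs in mammals begin with a C followed by a run of pyrimidines, the 5′ terminal oligopyrimidine (TOP) motif, through which growth signalling by the kinase mTORC1 and the RNA-binding protein LARP1 controls their translation and stability. In sensory neurons, ribosomal protein mRNAs are also known to be carried into axons.

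All 4 libraries listed a similar number of genes above 0, 21838 and 21941 in K823R and 21844 and 22119 in WT, and their depth is unknown because TPM keeps no read total. All 20 sensory neuron markers were detected, with summed levels of 20971 and 20252 TPM in K823R and 21708 and 18842 TPM in WT. Trpv1 was at 40.9 and 35.0 TPM in K823R and 39.2 and 30.6 TPM in WT, a log2 difference of 0.12 (limma, adjusted p = 0.938), and the deposited levels hold no information on the codon change itself. No marker of other cells around the ganglion passed the adjusted threshold in limma, and WT replicate 1 was the low library for several lists. Of the oligodendrocyte and astrocyte markers, 14 of 15 were tested and all 14 were nominally higher in K823R, with sums of 901 and 1021 TPM in K823R and 557 and 865 TPM in WT. All 12 fibroblast and meningeal markers lay in that direction too, with overlapping sums of 2979 and 951 TPM in K823R and 365 and 1124 TPM in WT, as did 10 of 12 macrophage markers, also with overlapping sums of 180.1 and 227 TPM in K823R and 123 and 184 TPM in WT. Of the 6 pituitary markers 3 were tested, with sums over these 3 of 22.1 and 19.1 TPM in K823R and 1.69 and 3.95 TPM in WT. Lhb was listed at 0 in all 4 libraries, and Mog, Opalin, Prl and Cga were listed at 0 in WT replicate 1. The part of these cells in the results below was not tested.

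The annotated transcription starts were examined first because the TOP motif is the feature by which these genes are best known. RefSeq start windows (GRCm38.p6, 250 bases before to 50 after the start) were available for 59 of the 81 genes. In 13 of the 59 (22.0%) at least 1 annotated start was a C followed by at least 4 pyrimidines, against 2.99% of the other 11024 genes tested and 0 of 69 genes for mitochondrial ribosomal proteins. The windows of 8 such genes, from 30 bases before the start to 20 after it, are given 5′ to 3′ on the transcribed strand, with the pyrimidine run that begins at the start in capitals.
Rps27, chr3:90213629-90213678, minus strand: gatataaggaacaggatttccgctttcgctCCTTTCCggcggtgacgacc
Rpl38, chr11:114668550-114668599, plus strand: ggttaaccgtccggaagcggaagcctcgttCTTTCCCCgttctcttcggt
Rps21, chr2:180257349-180257398, plus strand: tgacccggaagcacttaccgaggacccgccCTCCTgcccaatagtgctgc
Rpl35a, chr16:33056452-33056501, plus strand: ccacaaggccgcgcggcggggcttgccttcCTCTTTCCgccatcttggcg
Rps6, chr4:86857348-86857397, minus strand: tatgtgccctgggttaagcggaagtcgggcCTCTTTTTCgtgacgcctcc
Rps10, chr17:27635225-27635274, minus strand: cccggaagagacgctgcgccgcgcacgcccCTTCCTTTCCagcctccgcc
Rps18, chr17:33955646-33955695, minus strand: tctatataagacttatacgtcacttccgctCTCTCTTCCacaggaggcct
Rps15a, chr7:118116128-118116177, minus strand: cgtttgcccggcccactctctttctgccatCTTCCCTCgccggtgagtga

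These runs were 5 bases (Rps21) to 10 bases (Rps10) long. They were picked for having the run, which most of the 59 genes lack at their annotated starts by this criterion. Whether the annotated starts are those used in the ganglion was not tested. The windows of 3 paralogues, genes that resemble a main ribosomal protein gene and are described further on, are shown with the start base in capitals. Like most of the 59, none of the 3 has a C followed by at least 4 pyrimidines at that base.
Rps27l, chr9:66946056-66946105, plus strand: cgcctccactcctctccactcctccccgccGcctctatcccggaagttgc
Rpl22l1, chr3:28805478-28805527, plus strand: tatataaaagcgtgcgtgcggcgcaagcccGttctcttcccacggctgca
Rpl7l1, chr17:46782637-46782686, minus strand: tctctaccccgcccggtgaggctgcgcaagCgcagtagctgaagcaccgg

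A looser search looked for a C followed by at least 6 pyrimidines that begins within 10 bases of the start. It found 29 of the 59 genes (49.2%), against 15.3% of the other genes tested and 10.1% of the mitochondrial ribosomal protein genes. The windows printed above for Rps27l and Rpl22l1 hold such a run, and that for Rpl7l1 does not. The string CTTTCC lay within 20 bases of the start on the transcribed strand in 16.9% of the 59 genes and in 2.20% of the other genes tested. Over the whole window and on either strand, CCGGAAG (the core bound by ETS-family factors) was in 40.7% of the 59 genes, 37.7% of the mitochondrial ribosomal protein genes and 18.5% of the other genes tested. TATAAA between 40 and 15 bases before the start was in 1.69% of the 59 genes and in 1.45% of the other genes tested. The motifs overlap in places, such as CTTTCC inside the longer runs, and a match describes letters, not binding. The median log2 difference between K823R and WT, a measure the search did not use, was -0.11 in the 29 genes with the looser run and -0.088 in the 30 without it.

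**Figure D1:**
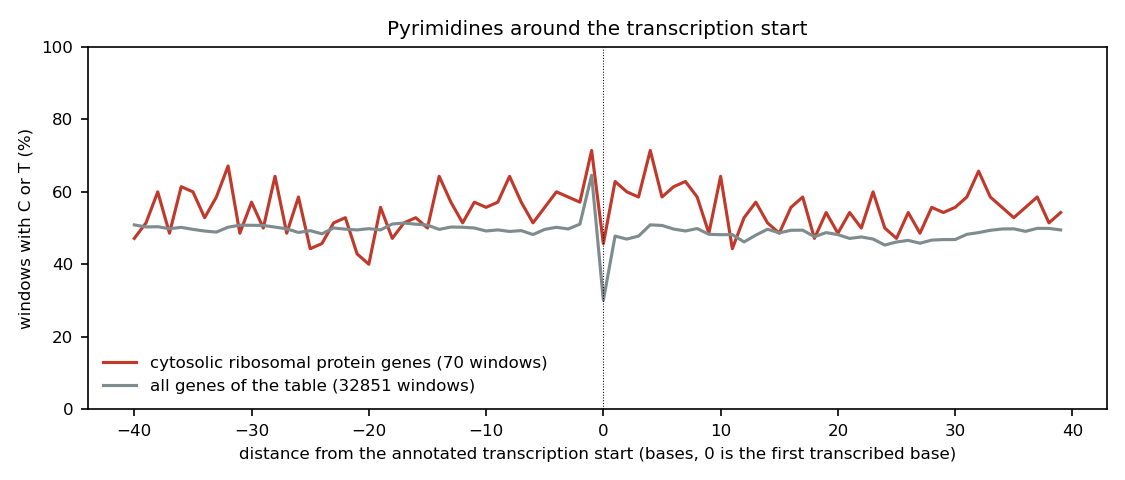
Percent of RefSeq start windows with C or T (y axis) at each distance in bases from the annotated transcription start (x axis, 0 is the first transcribed base), for the 70 windows of 59 cytosolic ribosomal protein genes and for all 32851 windows of the table. The ribosomal protein line lies above the other one at all of the first 10 transcribed bases, at all of the last 10 before the start, and at many positions farther out.

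The plot of pyrimidines by position shows a broad excess of pyrimidines, not one limited to the start. The ribosomal protein windows exceeded all windows by a mean of 11.7 percentage points over the first 10 transcribed bases and 7.81 over the 10 bases before them. The mean excess was 3.24 points farther upstream and 6.07 farther downstream, out to 40 bases on each side. With 70 windows, each step of the ribosomal protein line stands for few genes, so single peaks are not read.

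In level, these genes were among the most abundant of the ganglion. Their median was 622.66 TPM, 12 were among the 100 most abundant rows and 65 among the first 500, and 16 reached 1000 TPM. The highest was Rplp1, an acidic protein of the stalk that recruits translation factors, at 2470.0 and 2359 TPM in K823R and 2500.0 and 2861 TPM in WT. Rpl13a, a large-subunit protein also known to be released to silence inflammatory mRNAs in human monocytes, was at 2310.4 and 2323 TPM in K823R and 2258 and 2969 TPM in WT. The next were the small-subunit genes Rps27 (1642 and 1682 TPM in K823R and 1685 and 2154 TPM in WT) and Rps15 (1708 and 1775 TPM in K823R and 1676 and 1848 TPM in WT). WT replicate 2 was the highest library in each of these 4 genes, and K823R and WT overlapped in Rpl13a and Rps15. Rps24 was at 1496 and 1553 TPM in K823R and 1637 and 1842 TPM in WT, and Rpl23a, which lies at the mouth of the exit tunnel, at 1536 and 1569.5 TPM in K823R and 1602 and 1795 TPM in WT. In both, the 2 K823R libraries lay below the 2 WT libraries.

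**Figure D2:**
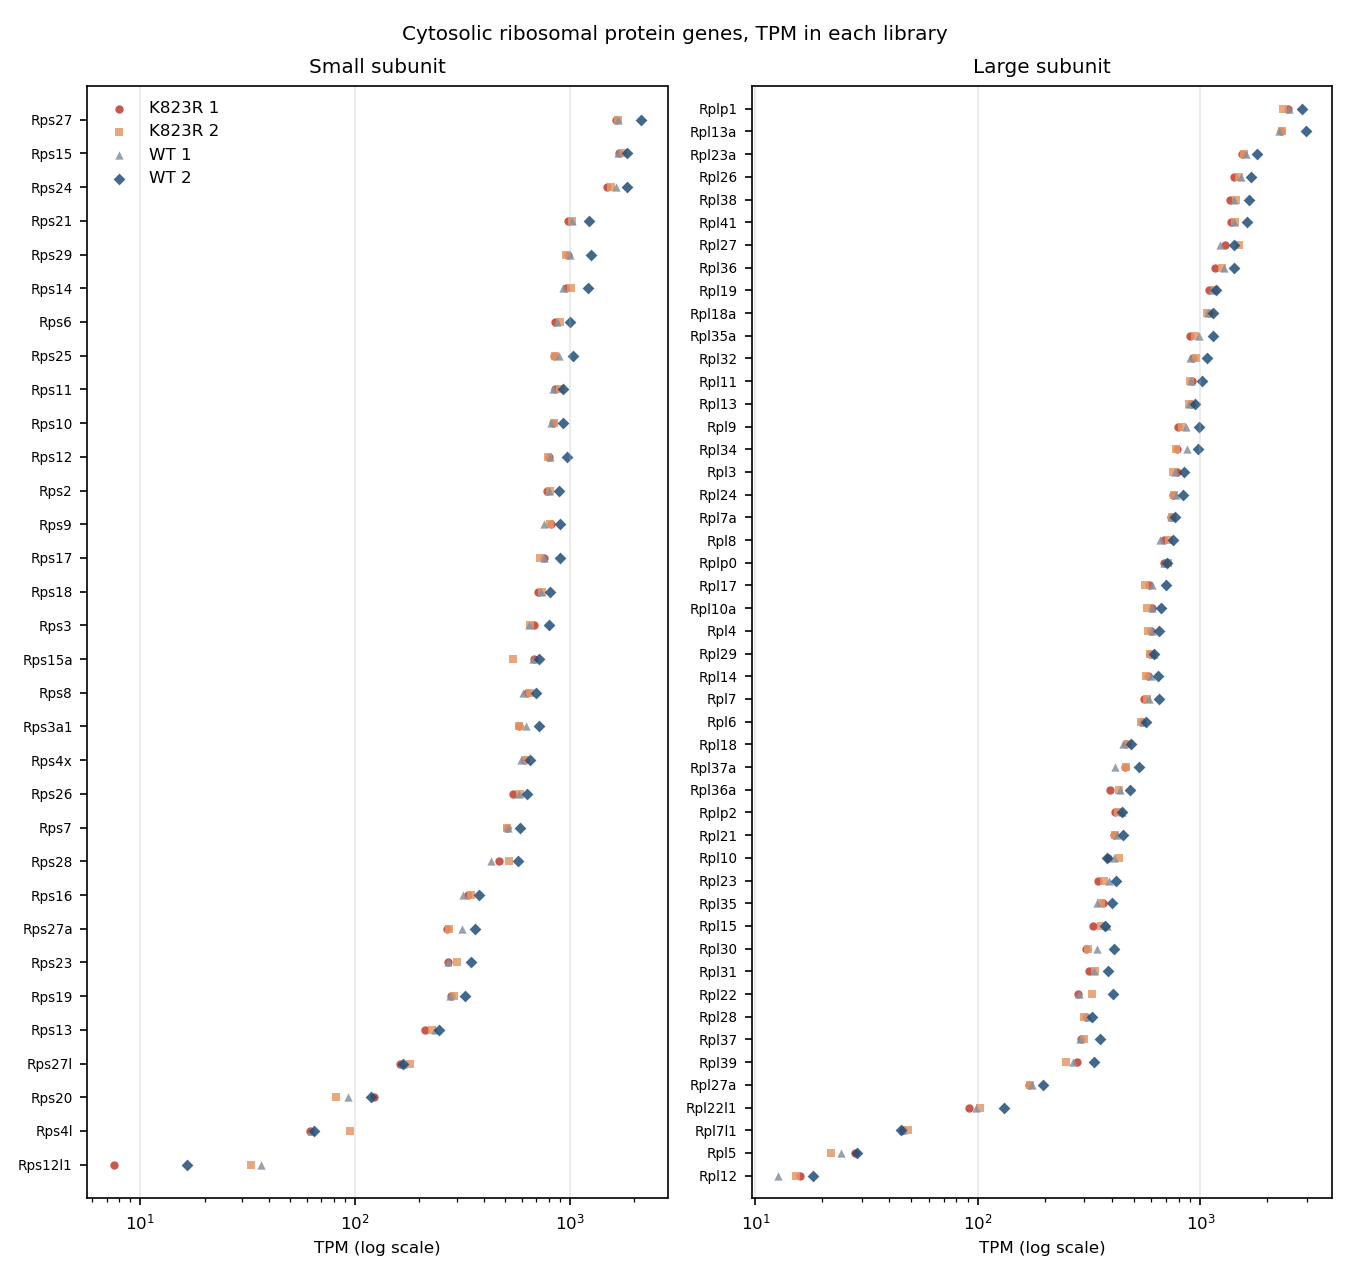
TPM on a log scale (x axis) of the cytosolic ribosomal protein genes (y axis, ordered by mean level, all but 1 of the 81 shown) in the 2 K823R and 2 WT libraries, for the small subunit (left) and the large subunit (right). WT replicate 2 (diamonds) is the rightmost point for most genes (70 of all 81), and 5 genes lie below a mean of 100 TPM.

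At the other end, the plot of levels shows 5 genes below 100 TPM. Rpl12, a protein at the base of the stalk, was at 15.8 and 15.2 TPM in K823R and 12.7 and 18.2 TPM in WT, with the K823R values inside the WT range. Rps12l1 was at 7.55 and 32.8 TPM in K823R and 36.4 and 16.6 TPM in WT, the widest range of all 81, and it is annotated as a processed pseudogene. Its whole sequence is identical to part of Rps12, which averaged 845 TPM, so the separate values of Rps12l1 are uncertain. Rpl5, which carries 5S RNA into the large subunit, was at 28.1 and 21.7 TPM in K823R and 24.2 and 28.7 TPM in WT. Rpl7l1 averaged 46.4 TPM and Rps4l, a transcribed processed pseudogene, 71.0 TPM over the 4 libraries. The other 79 genes are annotated as protein-coding. Just outside the rule, Rpl39l, a paralogue of Rpl39 best known from testis, was at 1.17 and 1.10 TPM in K823R and 0.270 and 0 TPM in WT. Rpl3l, known from striated muscle, was at 0.610 and 0.200 TPM in K823R and listed at 0 in both WT libraries. Rps3a2, Rps3a3 and Rpl6l stayed below 0.4 TPM in every library, and Rpl10l and Rpl32l were listed at 0 in all 4.

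Some of the low levels, those of Rpl12 and Rpl5 among them, came with near-identical rows elsewhere in the table, while Rpl7l1 and Rps4l held all of their family's TPM. Ribosomal protein genes have left many processed copies in mammalian genomes, and a read that fits both a gene and its copy must be divided by estimation. A sequence search found at least 1 copy (95% identity over 90% of the copy) for 78 of the 81 genes, 669 rows in all, of which 55 reached a mean of 1 TPM. Together the copies that are not among the 81 held 13.97% and 13.69% of the joint TPM in K823R and 13.88% and 13.32% in WT. For 11 genes the copies held more than the gene itself. Rpl12 held 2.40% of its family's TPM, while Gm10275, identical in sequence over its whole length, had 587 and 630.1 TPM in K823R and 631 and 671 TPM in WT. Rpl5 held 4.70%, while Gm15500 had 487 and 505 TPM in K823R and 518 and 570.4 TPM in WT. Rpl27a held 12.6%, while Gm7536 had 1129 and 1119.9 TPM in K823R and 1128 and 1292 TPM in WT. In each of these 3 copies WT replicate 2 was the highest library, as for most of the genes. Gm10443, identical to part of Rps28, followed another order, with 1128 and 1377 TPM in K823R and 1229.9 and 1009.9 TPM in WT. How reads were shared between such rows is not recorded in the levels, so the separate values of a gene and its copy are uncertain. For 57 of the 81 genes the gene's own row held at least 99% of the family.

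**Figure D3:**
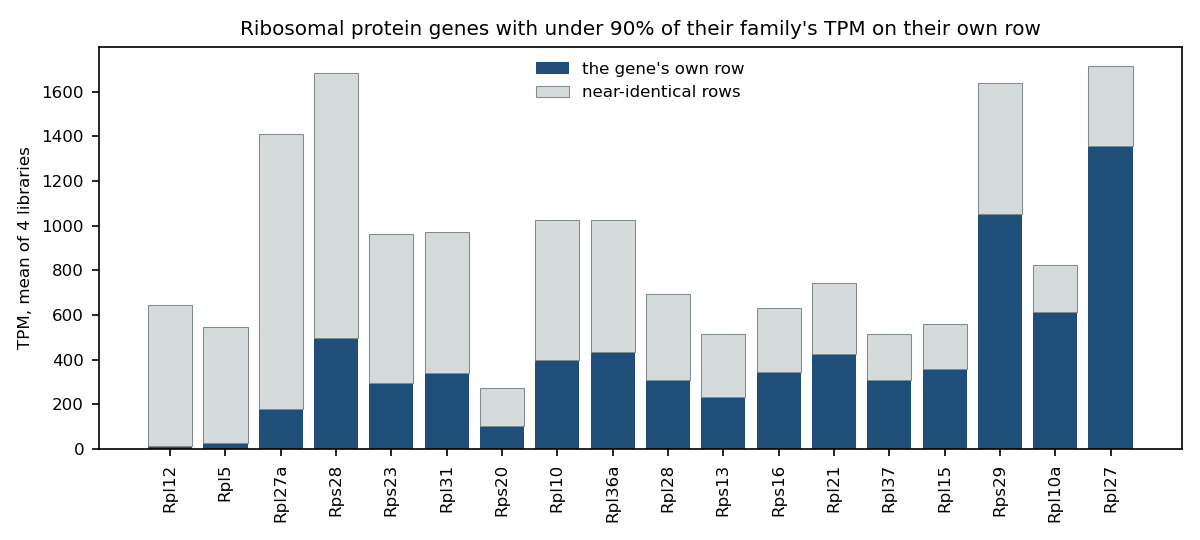
Mean TPM over the 4 libraries (y axis, bars from 0) of the 18 genes whose own row (dark) held under 90% of the TPM of the gene and its near-identical rows together (light), ordered by that share. For Rpl12 and Rpl5 nearly the whole bar is light, and the summed bars lie within the range of the other genes.

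As the bars of gene and copies show, adding the copies brings Rpl12 and Rpl5 into the range of the rest. With its copies, Rpl12 was at 603 and 645 TPM in K823R and 644 and 689 TPM in WT, and Rpl5 at 515 and 527 TPM in K823R and 542 and 599 TPM in WT. With copies added, the log2 difference of Rpl12 was -0.095 in place of 0.030, and that of Rps28 was 0.10 in place of -0.0041. Rpl37, chosen here after its values were seen, moved most. Alone it was at 292 and 298 TPM in K823R and 287 and 352 TPM in WT, a log2 difference of -0.11. With Rpl37rt, 99.66% identical, it was at 479 and 440 TPM in K823R and 563 and 574 TPM in WT, a log2 difference of -0.31 (limma, adjusted p = 0.917).

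Between the genotypes, no cytosolic ribosomal protein gene passed the test, and most were slightly lower in K823R. The 81 genes summed to 55766 and 56945 TPM in K823R and to 56752 and 64781 TPM in WT. That is 5.58% and 5.69% of all TPM in K823R and 5.68% and 6.48% in WT. The means were 56355 ± 834 TPM in K823R and 60767 ± 5677 TPM in WT (SD, n = 2 each), a ratio of 0.927 and a log2 ratio of -0.11. The K823R libraries and WT replicate 1 lay close together and WT replicate 2 lay apart, so the spread within WT was larger than the difference between the group means. In limma on log2(TPM + 1), 0 of the 81 genes passed an adjusted p of 0.05 in either direction, where 0.0065% of all 15390 genes tested passed as higher and 0.0% as lower. At an unadjusted p below 0.05, 3 genes were lower (3.7%, against 2.19% of all genes) and 0 higher (against 2.57% of all genes). By sign alone, 72 of the 81 (88.9%) were lower, against 42.6% of all genes, and 9 (11.1%) were higher, against 57.4%. Both K823R libraries lay below both WT libraries in 32 genes (39.5%, against 14.6% of all genes) and above them in 1 gene, Rpl7l1 (1.23%, against 19.4%). The median log2 difference was -0.10 over the 81 genes and 0.026 over all genes. Single differences ran from -0.60 (Rps12l1) to 0.27 (Rps4l). Their median standard error (SE) was 0.088 and the median half-width of their 95% interval 0.23, and for 76 of the 81 genes the whole interval lay within 1.5-fold either way. TPM in whole tissue cannot tell fewer cells of a type from less RNA per cell.

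Most of these lower values went with 1 high WT library. WT replicate 2 was the highest of the 4 libraries for 70 of the 81 genes (86.4%), against 20.1% of all genes. K823R replicate 1 was the lowest for 38 genes, K823R replicate 2 for 19, WT replicate 1 for 22 and WT replicate 2 for 2. Measured from each gene's own mean, the median gene was at -0.061 in K823R replicate 1, -0.029 in K823R replicate 2, -0.032 in WT replicate 1 and 0.14 in WT replicate 2 on the log2 scale. WT replicate 2 exceeded WT replicate 1 by a median log2 ratio of 0.18 and in 74 of the 81 genes. K823R replicate 2 exceeded K823R replicate 1 by 0.033 and in 57 genes. The distance between the 2 WT libraries was thus greater than the median difference between the genotypes.

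**Figure D4:**
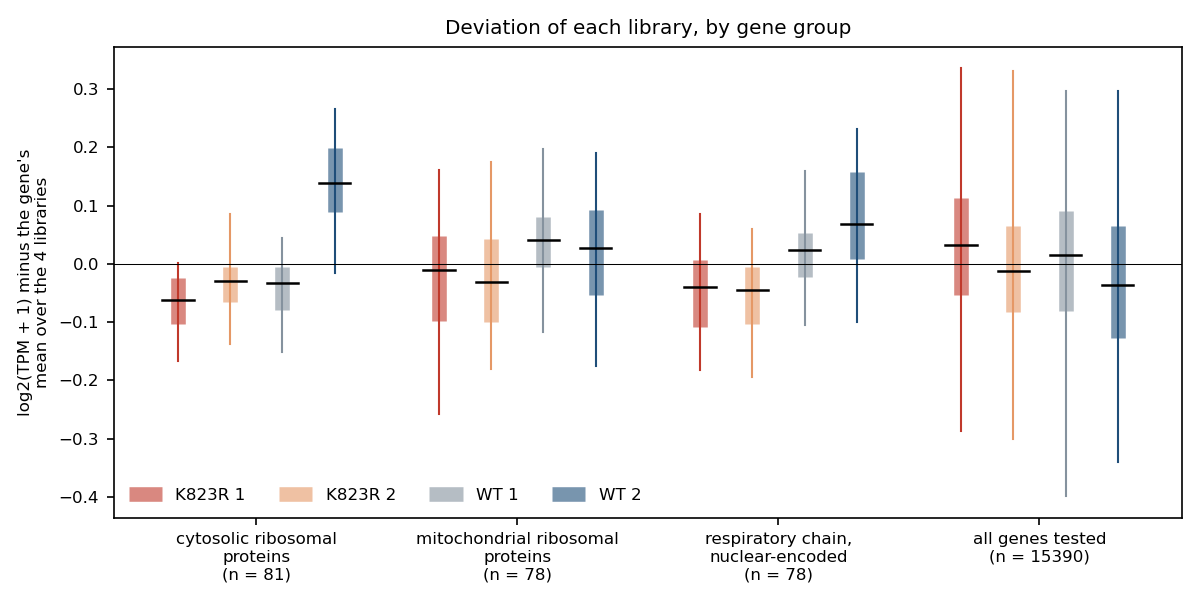
Deviation of each library from a gene's mean over the 4 libraries, in log2(TPM + 1) (y axis), for 81 cytosolic ribosomal protein genes, 78 mitochondrial ribosomal protein genes, 78 nuclear-encoded respiratory chain genes and all 15390 genes tested (x axis). Black lines are medians, bars the middle 50% of genes and thin lines the 5th to 95th percentile. The median cytosolic gene lies at 0.14 in WT replicate 2 and below 0 in the other 3 libraries.

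Leaving out WT replicate 2 moved the median log2 difference of the 81 genes to -0.019, with 48 lower and 33 higher, beside a median of -0.0022 over all genes. Leaving out WT replicate 1 moved it to -0.20, with 77 lower (95.1%, against 39.9% of all genes), beside a median of 0.050 over all genes. Without K823R replicate 1 the median was -0.081 and without K823R replicate 2 it was -0.10. The summed TPM gave a log2 ratio of -0.010 without WT replicate 2 and -0.20 without WT replicate 1. When the TPM were rescaled so that the 81 genes had the same total in every library, their median was 0.0035, with 43 higher and 38 lower, and the median of all genes became 0.12.

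**Figure D5:**
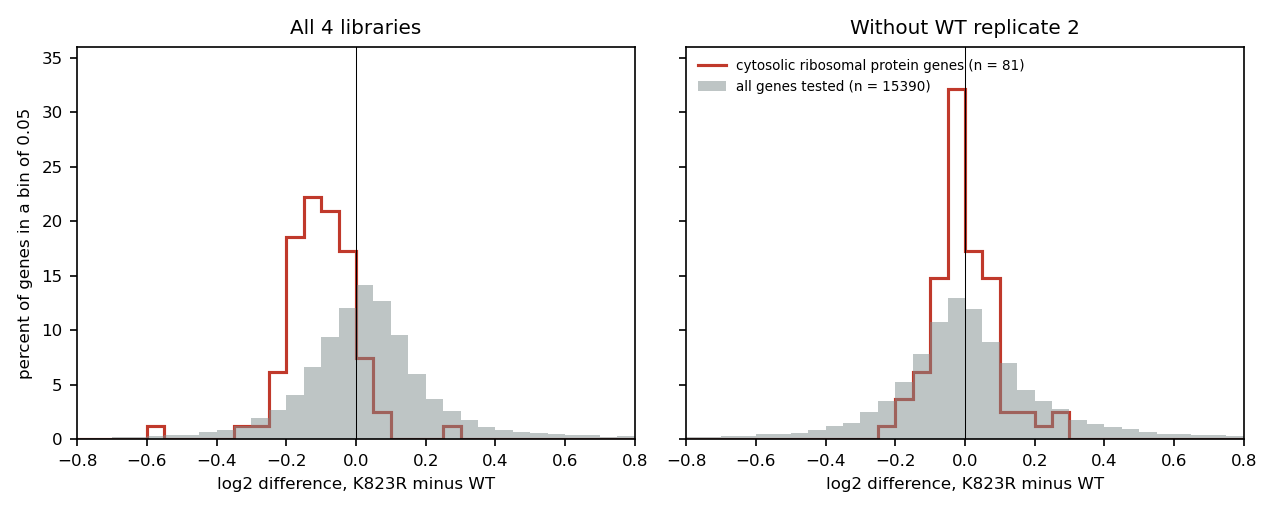
Percent of genes (y axis) by log2 difference, K823R minus WT (x axis, bins of 0.05), for the 81 cytosolic ribosomal protein genes (line) and all 15390 genes tested (filled), with all 4 libraries (left) and without WT replicate 2 (right). The line has its peak below 0 with all 4 libraries and beside 0 without WT replicate 2, where Rps12l1 at -1.14 lies outside the axis.

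The plot of differences shows both distributions with and without that library. Without it, 48 of the 81 genes (59.3%) lay below 0, against 50.5% of all genes.

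Among small-subunit genes the differences were small and below 0 in every role listed. The 3 proteins that line the mRNA entry, Rps2, Rps3 and Rps9, had log2 differences of -0.078, -0.11 and -0.025. Rps2 had the smallest p of them, at 788 and 815 TPM in K823R and 803 and 892 TPM in WT, and its groups overlapped. Next to the decoding centre and the A site, Rps18, Rps23 and Rps15 had differences of -0.082, -0.10 and -0.016. Rps18 was at 713 and 747 TPM in K823R and 739.7 and 808 TPM in WT, with 1 K823R library above WT replicate 1. Near the mRNA exit, Rps14, Rps26 and Rps28 had differences of -0.11, -0.097 and -0.0041. Rps26 was at 548 and 588 TPM in K823R and 581 and 635 TPM in WT, with K823R replicate 2 between the 2 WT libraries. Rps6, the substrate of S6 kinase downstream of mTORC1, was at 857 and 905 TPM in K823R and 878 and 999.9 TPM in WT, a difference of -0.089 (SE 0.090). As for Rps18 and Rps26, K823R replicate 2 lay between the 2 WT libraries. None of these genes had an unadjusted p below 0.05.

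The gene with the smallest p of all 81 was Rps27a (chr11:29545846-29548109, minus strand, GRCm38), which encodes a small-subunit protein fused to ubiquitin. It was at 269 and 276 TPM in K823R and 316 and 362 TPM in WT. Both K823R libraries lay below both WT libraries, with a log2 difference of -0.31 (SE 0.089, 95% interval -0.55 to -0.077, limma, adjusted p = 0.918). Without WT replicate 2 the difference was -0.21. Rpl34 (chr3:130726831-130730398, minus strand), a large-subunit gene, was at 782 and 776 TPM in K823R and 867 and 971 TPM in WT. The groups did not overlap, and the difference was -0.24 (SE 0.081, limma, adjusted p = 0.918), or -0.15 without WT replicate 2. Rpl30 (chr15:34440505-34443640, minus strand), a large-subunit protein that in yeast represses the splicing of its own transcript, was at 307 and 314 TPM in K823R and 344 and 411 TPM in WT. It too had groups that did not overlap, a difference of -0.28 (SE 0.104, limma, adjusted p = 0.918) and -0.15 without WT replicate 2. The next smallest p-values on the lower side belonged to Rps3a1 (579 and 584 TPM in K823R and 629 and 719 TPM in WT), Rpl23 (348 and 368 TPM in K823R and 388 and 419 TPM in WT) and Rps24. Their differences were -0.21, -0.17 and -0.19. In all 6 genes the 2 K823R libraries differed from each other by less than the 2 WT libraries did.

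In the large subunit, the 4 genes of the stalk and its base did not share a sign. Rplp1 and Rplp2, the paired acidic proteins, had log2 differences of -0.15 and -0.083. Those of Rplp0, to which the acidic proteins attach, and of Rpl12, at the base of the stalk, were 0.0069 (SE 0.065) and 0.030 (SE 0.184). Both were smaller than their SE, and with its copies added Rpl12 was at -0.095. Rplp0 varied least of the 81, at 685 and 714 TPM in K823R and 685 and 707 TPM in WT, a range of 0.061 on the log2 scale. Rpl5 and Rpl11, which with 5S RNA form the particle known to restrain Mdm2 when ribosome assembly is disturbed, had differences of -0.090 and -0.077. Rpl11 was at 919 and 898 TPM in K823R and 906 and 1014 TPM in WT, and the groups overlapped. Beside the peptidyl transferase centre, Rpl3, Rpl4, Rpl8 and Rpl10 had differences of -0.062, -0.089, 0.0038 and 0.048. Rpl4, which reaches into the tunnel, was at 598 and 582 TPM in K823R and 606 and 650.0 TPM in WT, without overlap. At the exit tunnel and its rim all 7 genes (Rpl17, Rpl19, Rpl23a, Rpl26, Rpl31, Rpl35 and Rpl39) were below 0 and highest in WT replicate 2, which 88.9% and 86.4% of all 81 genes were, with a median of -0.13 and a range of -0.18 (Rpl39) to -0.029 (Rpl19). Rpl17 had the smallest p of them, at 587 and 565 TPM in K823R and 606 and 697 TPM in WT (limma, adjusted p = 0.918). None of these large-subunit role groups held a gene with an unadjusted p below 0.05.

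The 9 genes on the higher side were Rpl27, Rpl8, Rplp0, Rpl18, Rpl10, Rps27l, Rps4l, Rpl7l1 and Rpl12. Rps4l had the largest difference at 0.27 (SE 0.209, limma, adjusted p = 0.918). Its values were 62.2 and 94.8 TPM in K823R and 62.8 and 64.3 TPM in WT. A single library, K823R replicate 2, stood above 3 that were alike, and without it the difference was -0.032. Rpl27 was at 1287 and 1497 TPM in K823R and 1222 and 1419 TPM in WT, a difference of 0.076. K823R replicate 2 was again the highest library, and the groups overlapped. Rpl10, an X-linked gene whose protein joins the large subunit late, was at 386 and 429 TPM in K823R and 407 and 379.8 TPM in WT, a difference of 0.048. By its own row, Rpl10 was, with Rpl7l1, 1 of 2 genes in which WT replicate 2 was the lowest library. That row held 39.1% of its family's TPM. With its copies added, Rpl10 was at 987 and 1021 TPM in K823R and 1029 and 1059 TPM in WT. WT replicate 2 was then its highest library, and the difference was -0.057.

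The paralogues did not all have the sign of their main genes. Rps27 and Rps27l encode closely related proteins. Rps27 had a difference of -0.20, while Rps27l, known as a p53 target, was at 163 and 181 TPM in K823R and 169 and 168 TPM in WT, a difference of 0.027 (SE 0.079). Rpl7 was at 560.0 and 573 TPM in K823R and 588 and 649 TPM in WT, without overlap and with a difference of -0.13. Rpl7l1 was at 46.2 and 48.5 TPM in K823R and 46.0 and 44.9 TPM in WT, a difference of 0.057 (SE 0.077), and WT replicate 2 was its lowest library. Rpl22 and Rpl22l1, of which the first is known to repress the second in mice, both had WT replicate 2 on top. Rpl22 was at 282 and 325 TPM in K823R and 284 and 403 TPM in WT, and Rpl22l1 at 91.0 and 102 TPM in K823R and 97.8 and 131 TPM in WT. Their differences were -0.16 (SE 0.187) and -0.23 (SE 0.162). The differences of Rps27l and Rpl7l1 were smaller than their SE, and Rpl22l1 had the sign of Rpl22. The difference between paralogues was not tested.

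Of the X-linked genes, Rps4x was at 621 and 623 TPM in K823R and 595 and 652 TPM in WT, a difference of -0.0030. Rpl36a was at 391 and 432 TPM in K823R and 436 and 484 TPM in WT, with a difference of -0.16 and no overlap. Rpl39 was at 278 and 248 TPM in K823R and 268 and 331 TPM in WT, a difference of -0.18. Rpl36a and Rpl39 were highest in WT replicate 2, as was Rps4x. Rpl10 was lowest there by its own row and highest there with its copies added. After Rps12l1, the widest ranges over the 4 libraries belonged to Rps4l and to Rps20, a small-subunit gene at 123 and 81.7 TPM in K823R and 92.7 and 119 TPM in WT. In Rps20 the high and the low value occurred in both groups. A list of 14 genes, not complete, in which mutations are known to cause Diamond-Blackfan anaemia in humans had differences below 0, from -0.21 (Rps29) to -0.0041 (Rps28), with a median of -0.11. All 14 were below 0 and 13 (92.9%) were highest in WT replicate 2, close to the 88.9% and 86.4% of all 81 genes. Rps29 was at 987 and 959 TPM in K823R and 1004 and 1256 TPM in WT.

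The balance between the subunits was the same in all libraries to within a few percent. Small-subunit TPM divided by large-subunit TPM was 0.653 and 0.651 in K823R and 0.645 and 0.668 in WT. Small-subunit genes had a median difference of -0.10, with 31 of 33 lower, and large-subunit genes of -0.096, with 41 of 48 lower. Both subunits thus carried the high values of WT replicate 2, with median deviations of 0.15 and 0.14 there.

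Other genes of the same particle, outside the name rule, gave similar signs but were not all highest in WT replicate 2. Rpsa, which is also known as a laminin receptor, was at 511 and 467 TPM in K823R and 523 and 528 TPM in WT. Fau, whose protein is released from a ubiquitin-like partner, was at 809 and 887 TPM in K823R and 859.7 and 951 TPM in WT. Rack1, a scaffold on the small subunit, was at 243 and 222 TPM in K823R and 241 and 229.9 TPM in WT. Rpl36al, a paralogue of Rpl36a, was at 430.4 and 403 TPM in K823R and 449 and 402 TPM in WT. These 4 differences were below 0, from -0.11 (Rpsa) to -0.018 (Rack1), and WT replicate 2 was the highest library for Rpsa and Fau but not for Rack1 and Rpl36al.

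Genes that serve the ribosome from outside were split evenly. Of 25 translation factors and other mRNAs known to carry a TOP motif, 13 were higher and 12 lower, with a median of 0.0052, and 10 were highest in WT replicate 2. Gas5, a non-coding host of small nucleolar RNAs, was at 235 and 253 TPM in K823R and 274 and 321 TPM in WT, with a difference of -0.28 (limma, adjusted p = 0.918). Snhg1, of the same kind, was at 13.6 and 15.7 TPM in K823R and 21.6 and 18.5 TPM in WT, with a difference of -0.43 (limma, adjusted p = 0.918). Of 40 assembly factors, 20 were higher and 20 lower. Nop58, a core protein of the particles that methylate ribosomal RNA, had the smallest p of all these lists, at 16.8 and 16.5 TPM in K823R and 28.8 and 25.7 TPM in WT, a difference of -0.68 (limma, adjusted p = 0.775). Of 17 genes for RNA polymerase I and 5S transcription 9 were higher, and of 16 genes of the mTORC1 and LARP1 axis 7 were higher. No gene of these lists passed the adjusted threshold.

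Genes for 2 other large assemblies had part of the pattern. Of 78 genes for mitochondrial ribosomal proteins, which make the separate ribosome of that organelle, 53 were lower in K823R (median -0.047), and WT replicate 2 was the highest library for 28. Of 78 nuclear-encoded respiratory chain genes, 61 were lower (median -0.077) and 43 were highest in WT replicate 2. None of either set passed the adjusted threshold. An unadjusted p below 0.05 was reached by 10 mitochondrial ribosomal protein genes (12.8%, 8 lower and 2 higher) and 11 respiratory chain genes (14.1%, all 11 lower), against 4.76% of all genes. In the plot of deviations, both K823R libraries lie below both WT libraries for the median respiratory chain gene, whereas for the cytosolic genes WT replicate 2 alone stands apart.

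Short transcripts outside the set were also high in WT replicate 2, most clearly the abundant ones, while long ones were not. The cytosolic ribosomal protein genes had a median length of 780 bases in the deposited length column, against 2663 for all genes tested. Among other genes averaging 200 TPM or more, the 50 of at most 500 bases had a median deviation of 0.15 in WT replicate 2, where 60.0% of them were highest, and a median log2 difference of -0.13. The 201 of over 2000 to 4000 bases had a median deviation of -0.092 there, 8.96% were highest, and the median difference was 0.052. Between these, the 177 of over 500 to 1000 bases were at 0.022 with 39.5% highest there, and the 248 of over 1000 to 2000 bases at -0.053 with 16.1% highest. In the ribosomal protein genes the median deviation in WT replicate 2 did not fall steadily with length. It was 0.19 for the 12 genes of at most 500 bases, of which 91.7% were highest there. It was 0.13 for the 47 of over 500 to 1000 bases (87.2% highest) and 0.14 for the 17 of over 1000 to 2000 bases (88.2% highest). The 4 of over 2000 to 4000 bases were at 0.19 with a lower percent highest, and are too few to read. In order of length, the median log2 differences of these bins were -0.16, -0.088, -0.089 and -0.0785. Over all 81 genes, length and log2 difference had a Spearman rho of 0.22, so shorter genes tended weakly to be lower in K823R. Mitochondrially encoded genes held 6.09% and 6.28% of TPM in K823R and 6.12% and 6.88% in WT, and sensory neuron markers had their lowest median in WT replicate 2, at -0.099. The part of these in the result was not tested.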

How the data were processed

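Messenger RNA of mouse trigeminal ganglia was fragmented, primed with random hexamers and sequenced, per the labels' protocols. The build GRCm38.p6 and the tools edgeR, RSEM, HISAT2 and fastp 0.19.5 are given in the submitters' processing notes, with no role or settings. The authors deposited TPM per gene for 2 K823R and 2 WT libraries, grouped by sample title. TPM keeps no read total, so no counting interval is given, and an abundant transcript lowers all others in its library.

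From the deposited TPM, log2(TPM + 1) was tested with limma 3.58.1 in R 4.3.3 (variance trend, two-sided, 2 residual and 2.67 prior degrees of freedom) for the 15390 rows averaging 1 TPM or more. Differences are K823R minus WT and understate the change of low genes. P-values were Benjamini-Hochberg adjusted over all of them with a threshold of 0.05. A permutation of 2 against 2 libraries cannot give an exact p under 0.333. The fit was tested on simulated data with 200 changed genes. Copies were found with BLAST 2.17.0 against GENCODE M21 (GRCm38), which matched 55141 of 55487 Ensembl identifiers and gave the coordinates. Sequences are RefSeq's. Plots used matplotlib 3.10.9.

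The genes and lists were chosen with earlier results of these data known. Named genes were the 6 of highest level, 6 of smallest p in each direction, paralogues, X-linked genes, role lists, the lowest levels, the widest ranges, and up to 3 of smallest p from each other list. Alternatives were other pseudocounts, filters and scalings, no trend, a replicate block, and each library left out. The main test did not treat the replicate numbers as pairs. Some genes that this rule would name are not reported here.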

Additional observations from a re-analysis of the deposited data

How the results depend on the processing

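The count of 0 ribosomal protein genes past the adjusted threshold held under all 17 other settings. Over the 35 genes named by rule, adjusted p ran from 0.656 to 1.0 in these settings, and 18 changed sign in at least 1 of them. The median log2 difference ran from -0.20 (without WT replicate 1) to -0.019 (without WT replicate 2) when a library was left out, and from -0.12 to -0.083 under the other planned settings. It turned to 0.0035 with TPM rescaled to the genes' own total, an alternative added after the data were seen that removes a joint shift by construction. The log2 ratio of summed TPM ran from -0.20 (without WT replicate 1) to -0.010 (without WT replicate 2). Over all genes, 1 passed in the main test. Without any one library the count was 0, from lowest 0 to highest 0. It was also 0 with a pseudocount of 0.01 TPM, without a filter, without the variance trend and with a replicate block, 2 with a minimum of 10 TPM and 7 with TPM rescaled to the ribosomal genes' total. The cause was not tested. Same-numbered libraries of the 2 groups deviated together with r = 0.050 over 15390 genes. Such a value over all genes cannot settle whether the numbers pair the libraries. Among the 81 genes, replicate 2 exceeded replicate 1 in 74 in WT and in 57 in K823R. With the replicate block 0 ribosomal protein genes passed after adjustment, and the median stayed at -0.10. TPM gives no depth, so no counting error can be stated for low genes.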

Other observations

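Within the ribosomal protein total, most genes kept a similar share in all libraries. As a share of the summed TPM of the 81 genes, 64 genes had a log2 ratio of K823R over WT within 0.1 of 0. Both K823R shares lay above both WT shares in 16 genes and below them in 15, and the groups overlapped in 50. In TPM, 19.4% of all 15390 genes were separated upward and 14.6% downward. No such background was computed for shares of this total, so these counts are not read as a result. Rps27a made up 0.483% and 0.485% of the total in K823R and 0.558% and 0.559% in WT. Rpl30 made up 0.551% and 0.551% in K823R and 0.607% and 0.634% in WT. Rpl27 made up 2.31% and 2.63% in K823R and 2.15% and 2.19% in WT. Shares of one total are not independent of each other, and these were given no test.

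The rows Rpl27-ps3 and Gm11518, both identical in sequence to part of Rpl27, carried the same value in each library, 176.65 and 181.24 TPM in K823R and 170.87 and 186.18 TPM in WT. Gm4149, a copy of Rpl37a, was at 9.66 TPM in K823R replicate 1 and listed at 0 in K823R replicate 2 and in both WT libraries. Rps12-ps3, a copy of Rps12, was at 19.8 and 7.65 TPM in K823R and at 34.3 and 0 TPM in WT.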
